A study of Oryza sativa with 16 samples.

Results

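Binding regions of OsHOX24 at the ends of rice chromosomes were described from ChIP-seq summit lists, a summit being the position of highest enrichment within a peak. OsHOX24 is a plant transcription factor of homeodomain-leucine zipper subfamily I. The regions came from 8 ChIP libraries, 2 from each of H49 desiccation, WT desiccation, H49 control and WT control. H49 is 1 transgenic rice line that over-expresses OsHOX24, and WT is wild-type rice. Seedlings 3 weeks old were left to dry on paper for 3 h or kept in water as control. All groups carry the endogenous OsHOX24 gene and were precipitated with the same anti-OsHOX24 antibody, so WT is not a background without antigen. The sources used here do not name the promoter that drives the transgene, and the 8 input samples were not analysed here.

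An end was the 1 Mb next to position 1 (the start) or to the highest summit position over all lists (the high end) of Chr1 to Chr8, the high ends of Chr9 and Chr10, and the first 0.3 Mb of Chr9. Chr11, Chr12 and the start of Chr10 were not among the ends. Summits up to 200 bp apart were merged into regions. This gave 1002 regions of 16253 in the whole series, of which 52 lay in the first 100 kb of Chr9 and are described apart. The remaining 950 regions held 1559 summits at 19 ends, which span 18.2 Mb together. They were compared with the 14121 regions in the rest of Chr1 to Chr10, which spans 298 Mb.

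Subfamily I proteins bind DNA as dimers at short AT-rich near-palindromes, and several members are induced by water deficit or abscisic acid. Rice chromosome arms end in telomere repeats, followed inwards by repeat-bearing subtelomeric sequence and then by gene-dense distal arm. The tip of the short arm of chromosome 9 carries tandem copies of the ribosomal RNA genes, around which the nucleolus forms. Which genes lie at the regions was not analysed here.

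The lists held from 2193 to 9348 summits, the longest being WT control replicate 1. The value given for each summit is the peak caller's −log10 p, which cannot be compared between libraries. It was therefore turned into a percentile within its own list. WT desiccation replicate 2 stood apart with a median −log10 p of 19.9, against 6.10 to 7.81 in the other libraries. Read depth is unknown, so a missing summit means not called and not unbound.

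Chromosome ends as a whole did not differ detectably from the rest of the chromosomes in the density of OsHOX24 summits, but single ends ranged from 0.141 to 2.68 times the density of the rest. The high ends of Chr4, Chr10 and Chr7 were the dense ones, at 2.25 to 2.68 times the density of the rest in the mean of 8 libraries. The starts of Chr4, Chr7 and Chr2 and the high end of Chr1 were the sparse ones, at 0.141 to 0.311 times.

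Over all 19 ends the density per Mb, ends against rest, was 6.81 against 6.59 and 5.33 against 6.74 in the H49 desiccation libraries. In the WT desiccation libraries it was 5.71 against 7.89 and 6.48 against 5.82. In the H49 control libraries it was 12.8 against 12.3 and 8.85 against 9.70, and in the WT control libraries 31.3 against 27.5 and 8.35 against 9.19. The ends were the denser side in 4 of 8 libraries. The mean log2 ratio was −0.08 ± 0.23 (SD, n = 8), with p = 0.383 (exact permutation of the signs over libraries, two-sided), also 0.383 after Benjamini-Hochberg adjustment over 4 measures. The libraries share regions, so p-values of this kind measure how constant a difference was between libraries. Set only against the 4 Mb next to each end, the ends were less dense, at a log2 ratio of −0.47 ± 0.31 (adjusted p = 0.0208 in the same exact permutation test). With ends of 2 Mb the ratio was 0.27 ± 0.18 (adjusted p = 0.0104, exact permutation test). The direction therefore depended on the width of an end, while the choice between the adjacent 4 Mb and the whole rest changed the size and the call.

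The high end of Chr4 held the most summits of any end, 232 in all. It held 26 and 12 summits in the H49 desiccation libraries, 19 and 13 in WT desiccation, 36 and 27 in H49 control and 75 and 24 in WT control. Every library had more summits there than its mean for 1 Mb of the rest, and the mean log2 ratio was 1.42 ± 0.32 (SD, n = 8). The high end of Chr10 held 15 and 12 summits in H49 desiccation, 16 and 17 in WT desiccation, 37 and 21 in H49 control and 60 and 25 in WT control, a log2 ratio of 1.27 ± 0.26. At the high end of Chr7 the counts were 20 and 15 in H49 desiccation, 18 and 7 in WT desiccation, 31 and 18 in H49 control and 66 and 23 in WT control, a log2 ratio of 1.17 ± 0.38.

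These 3 of 19 ends were called above the rest, 15.8% of the ends tested. Each was higher in 8 of 8 libraries, with adjusted p = 0.0212 over 19 ends in the exact permutation of signs. In the upper 50% of each list only 1 end passed. Together the 3 ends held 42.5% ± 6.85 of a library's end summits. The other 16 ends, a split made after the values were seen, lay at 0.666 ± 0.164 times the density of the rest and below it in all 8 libraries.

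Within the dense ends the summits were bunched, which was not particular to them. Among the ends of 1 Mb, the share held by the fullest 100 kb ran from 19.7% at the high end of Chr2 to 54.4% at the start of Chr6. At the high end of Chr4, the 100 kb between 400 and 500 kb from the end held 88 of the 232 summits (37.9%), with 7 and 3 in H49 desiccation, 8 and 4 in WT desiccation, 18 and 15 in H49 control and 18 and 15 in WT control. Every library had summits there. As a percent of its list, the bin held 0.299% and 0.127% in H49 desiccation, 0.297% and 0.182% in WT desiccation, 0.425% and 0.443% in H49 control and 0.193% and 0.472% in WT control, so the treatments overlapped. This stretch holds a chain of 3 neighbouring regions, Chr4:34979316-34980037, Chr4:34980279-34980602 and Chr4:34981145-34981804, called in 8, 4 and 4 libraries. The nearest summits of neighbours in the chain lay 442 and 743 bp apart. At the high end of Chr10, 58 of 203 summits (28.6%) lay between 300 and 400 kb. At the high end of Chr7 the summits lay further in, with 40 between 800 and 900 kb and 42 between 900 and 1000 kb, while the 21 between 700 and 800 kb all came from control libraries, 13 of them from WT control replicate 1. These bins were chosen after their values were seen and were not tested.

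A total of 6 ends, 31.6% of those tested, were called below the rest. The start of Chr4 was the sparsest, with 12 summits in all. The H49 desiccation libraries had 0 and 0 there, WT desiccation 0 and 1, H49 control 1 and 1, and WT control 6 and 3. Its log2 ratio was −2.83 ± 0.96, on a scale where 0.5 summit was added to each count. The start of Chr7 followed at −1.92 ± 0.87 with 26 summits, the start of Chr2 at −1.70 ± 1.26 with 27 and the high end of Chr1 at −1.69 ± 1.00 with 36. The high end of Chr8 (−0.82 ± 0.63) and the start of Chr8 (−0.58 ± 0.54) passed as well. Adjusted p-values of these 6 ends were 0.0212 to 0.0495 in the exact permutation test, and each end was lower in at least 7 of 8 libraries. Against the 4 Mb next to the ends, 12 ends were below.

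The other 10 ends did not pass in either direction. They ran from the high end of Chr5 (log2 ratio 0.40 ± 0.76) to the first 0.3 Mb of Chr9 without its outermost 100 kb (−1.12 ± 1.43, 6 summits in all). When the 19 ends were ordered by density, 0 of 18 neighbouring pairs differed by more than 1 SD of their difference over libraries. This sets a mean against the spread between libraries, and the order of any end and the next was not tested.

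**Figure D1:**
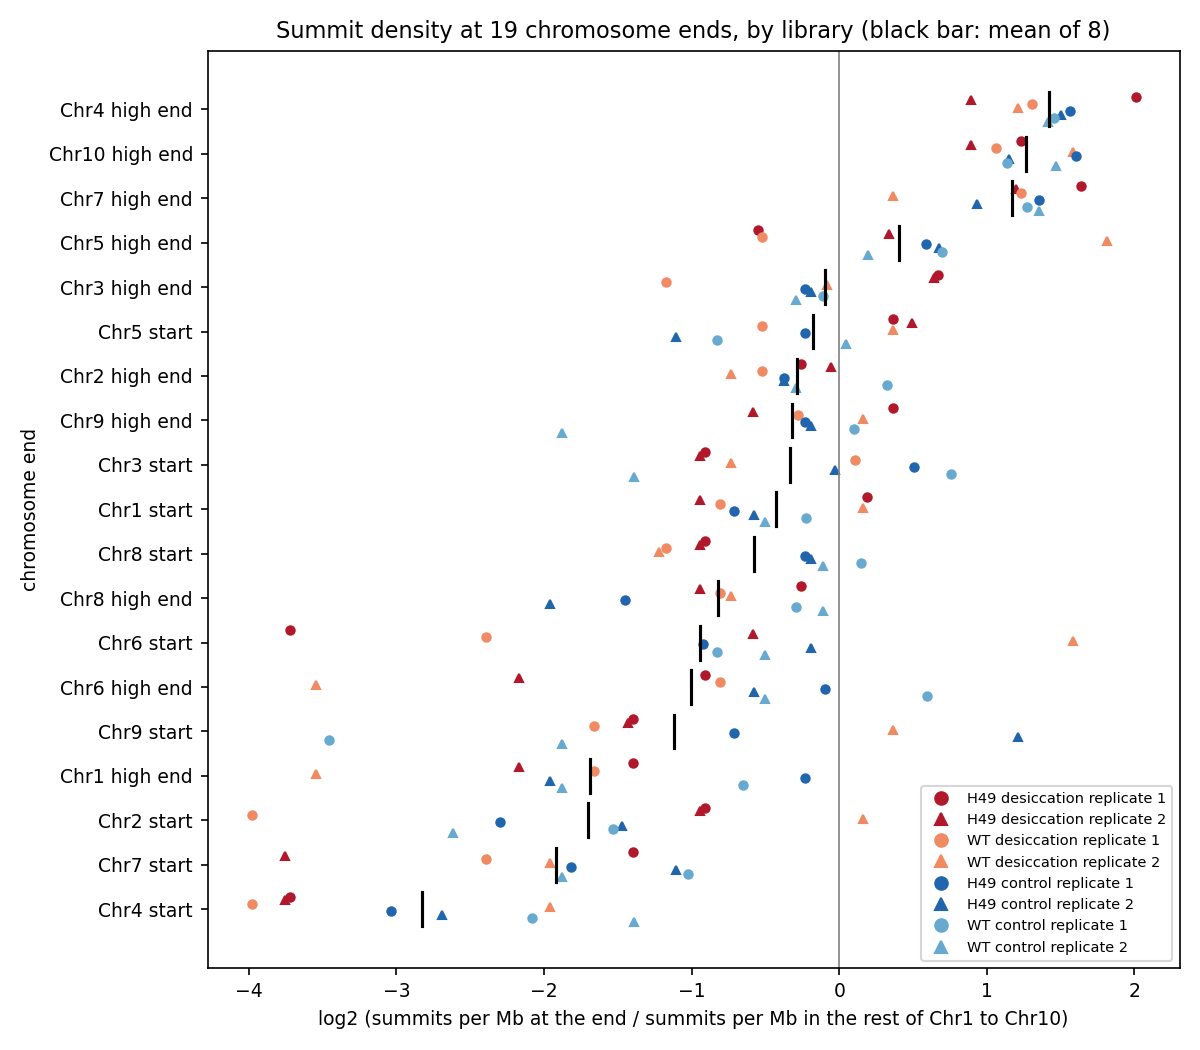
Summit density at each of the 19 chromosome ends relative to the rest of Chr1 to Chr10, on a log2 scale, with 1 point per library and a black bar at the mean of 8. The high ends of Chr4, Chr10 and Chr7 lie above 0 in every library, at means of 1.42, 1.27 and 1.17, and the start of Chr4 lies below 0 in every library, at a mean of −2.83.

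Summed over Chr1 to Chr8, the high ends held more summits than the starts, though not on every chromosome. The high ends of Chr1 to Chr8 had 9.37 and 7.0 summits per Mb in the H49 desiccation libraries, against 3.25 and 3.13 at the starts. In WT desiccation the high ends had 7.50 and 6.37, against 2.75 and 5.38 at the starts. In H49 control they had 16.1 and 10.6, against 7.0 and 5.38, and in WT control 40.5 and 10.9, against 19.6 and 4.75. The high ends were the denser side in all 8 libraries. The mean log2 ratio of high ends to starts was 1.10 ± 0.39 (SD, n = 8), with p = 0.00781 by exact permutation of signs, the lowest p that 8 libraries allow, and 0.0156 after adjustment over 4 measures.

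Position 1 and the highest summit are not alike as borders, since a high end always closes on a summit. With the starts measured from their lowest summit, an alternative chosen after the data were seen, the ratio was 0.74 ± 0.29 (adjusted p = 0.0313, exact permutation test, higher in 8 of 8 libraries). Without the high ends of Chr4 and Chr7, also chosen afterwards, it was 0.45 ± 0.23 (adjusted p = 0.0313, exact permutation test, higher in 7 of 8 libraries). WT desiccation replicate 2 had the lowest ratio, 0.25, and without it the mean was 1.22 ± 0.20 (adjusted p = 0.0625, exact permutation test). The adjusted p was also 0.0625 without any of 5 other libraries, where 7 libraries allow no p below 0.0156 before adjustment. With ends of 0.5 Mb the ratio was 2.0 and with ends of 2 Mb it was 0.46.

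By chromosome, and summed over the libraries, the starts of Chr1 and Chr8 held more summits than the high ends. The high end of Chr1 held 36 summits, against 62 at its start, and the high end of Chr8 held 51, against 67 at its start. On Chr8 the start was the fuller side in control libraries only. There the H49 desiccation libraries had 5 at the high end against 3 at the start and 3 against 3. WT desiccation had 4 against 3 and 3 against 2. H49 control had 4 against 10 and 2 against 8, and WT control 22 against 30 and 8 against 8. On Chr3 the high end held 78, against 92 at the start, where WT control replicate 1 supplied 46. On Chr6 the high end held 72, against 57 at the start, but the mean log2 ratio to the rest was −1.0 at the high end and −0.94 at the start. The excess in these sums lay on Chr4, Chr7, Chr5 and Chr2, where the high ends held 232, 198, 124 and 76 summits, against 12, 26, 67 and 27 at the starts. The longest list weighs most in such sums, and on Chr5 the libraries differed in direction. There the H49 desiccation libraries had 4 against 8 and 8 against 9. WT desiccation had 5 against 5 and 20 against 7. H49 control had 18 against 10 and 15 against 4, and WT control 44 against 15 and 10 against 9. These comparisons by chromosome were not tested.

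Density changed with the distance from the end differently on the 2 sides. At the starts it was 0.326 ± 0.164 times that of the rest between 0.2 and 0.5 Mb from position 1, and below the rest in all 8 libraries. It was 0.757 ± 0.179 times between 0.5 and 1 Mb, and 1.37 ± 0.228 times between 1 and 2 Mb, above the rest in 7 of 8 libraries. At the high ends it was 1.29 ± 0.397 times between 0.2 and 0.5 Mb, 1.23 ± 0.327 between 0.5 and 1 Mb and 1.48 ± 0.258 between 1 and 2 Mb. Neither side changed steadily further in. Between 2 and 3 Mb the starts had 0.767 ± 0.0925 times and the high ends 1.71 ± 0.262 times. Between 3 and 4 Mb these were 0.740 ± 0.150 and 1.39 ± 0.375, and between 4 and 5 Mb 0.993 ± 0.230 and 2.43 ± 0.199. At the border of 1 Mb, the last 100 kb inside and the first 100 kb outside had 0.787 ± 0.214 and 1.03 ± 0.269 times the density of the rest at the starts, and 1.26 ± 0.659 and 0.933 ± 0.491 times at the high ends. These profiles are descriptions and were not tested.

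**Figure D2:**
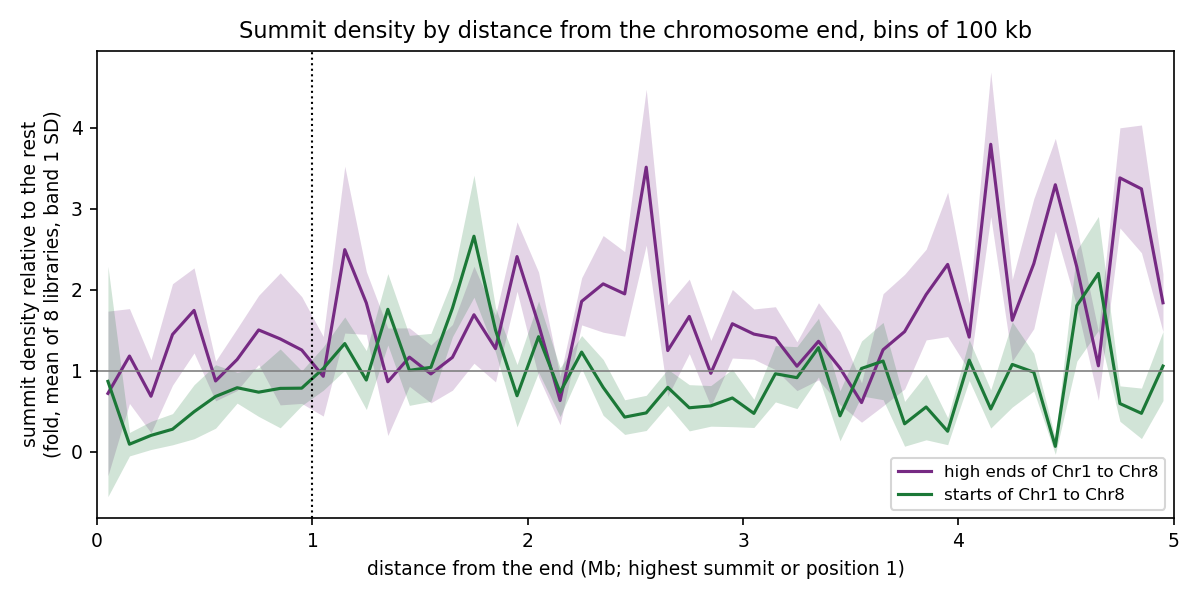
Mean summit density of the 8 libraries relative to the rest, in bins of 100 kb, by distance in Mb from the highest summit (high ends) or from position 1 (starts) of Chr1 to Chr8, with a band of 1 SD and a dotted line at the 1 Mb border. Between 0.2 and 1 Mb the line of the starts stays below 1, and that of the high ends crosses 1 several times.

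The outermost 100 kb differed between ends in how many summits they held and in which libraries. The 10 high ends held 60 summits there, among them 15 from 6 libraries at Chr10, 11 from 8 libraries at Chr4 and 5 from 5 libraries at Chr7. The lowest summit on Chr1 lay at 227 kb and that on Chr3 at 340 kb from position 1. The starts of Chr1 to Chr8 held 44 summits in their outermost 100 kb, 20 of them in WT desiccation replicate 2. The start of Chr6 accounted for 31 of the 44. There the H49 desiccation libraries had 0 and 4, WT desiccation 0 and 16, H49 control 0 and 4 and WT control 1 and 6, so that replicate 2 exceeded replicate 1 in each group. The outermost 100 kb of the high end of Chr5 held 10 summits, of which 9 were from WT desiccation replicate 2 and 1 from WT control replicate 2. These bins were chosen after their values were seen.

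Regions at the ends were called again in other libraries less often than regions elsewhere, by a small margin. Of a library's end regions, 65.3% ± 13.9 (SD, n = 8) had a summit in at least 1 other library, against 71.2% ± 13 of its regions in the rest. In H49 desiccation the shares at ends were 71.0% and 80.4%, against 80.0% and 82.9% in the rest. In WT desiccation they were 73.1% and 55.1%, against 73.6% and 71.5%. In H49 control they were 65.7% and 69.8%, against 68.9% and 74.5%, and in WT control 36% and 71.7%, against 41.1% and 77.5%. The ends had the lower share in 8 of 8 libraries, by −5.91 ± 4.93 percentage points, ends minus rest (p = 0.00781 and adjusted p = 0.0156 in the exact permutation of signs). Each share is set by the calls of the other libraries, so the 8 differences are tied together and are not separate units.

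The margin ranged from −0.481 points in WT desiccation replicate 1 to −16.4 points in WT desiccation replicate 2. Leaving out 1 library gave −4.56 to −8.70 points, the first without WT desiccation replicate 2 and the second without WT control replicate 1. The adjusted p was then 0.0313 without WT desiccation replicate 1 or H49 control replicate 1 and 0.0625 to 0.125 without any of the other 6 libraries (exact permutation tests), where the smallest p that 7 libraries allow is 0.0156 before adjustment. With ends of 0.5 Mb the margin was −2.46 points, with ends of 2 Mb −1.38 points, and in the upper 50% of each list −3.04 points, and it did not pass in any of these (adjusted p = 0.539, 0.141 and 0.375, exact permutation tests).

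Counted by region, 672 of the 950 end regions (70.7%) were called in 1 library, against 64.8% in the rest. WT control replicate 1 alone supplied 365 of the 672. With the regions rebuilt without that library, 423 of 594 end regions (71.2%) were called in 1 library, against 62.4% in the rest. Without WT desiccation replicate 2 the shares were 70.8% at ends and 65.2% in the rest, and without both libraries 71.6% and 63.0%. A total of 278 end regions (29.3%) were called in at least 2 libraries, against 35.4% of all regions of the series, and 83 (8.74%) in at least 4, against 11.2%. The ends differed among themselves here too. A region at the start of Chr1 was called in 2.07 libraries on average, one at the high end of Chr3 in 1.86 and one at the high end of Chr4 in 1.82, while the 6 regions at the start of Chr9 were called in 1 library each.

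Called in both replicates of a group were 43 end regions in H49 desiccation (4.53% of the end regions, against 5.8% of all regions), 23 in WT desiccation (2.42%, against 3.27%), 65 in H49 control (6.84%, against 8.78%) and 69 in WT control (7.26%, against 9.11%). As a share of the end regions called in either replicate these were 0.242, 0.116, 0.199 and 0.106, in the same order. The corresponding shares in the rest were 0.243, 0.120, 0.229 and 0.131. Another region lay within 2 kb, between nearest summits, of 66.6% of end regions, against 71.2% in the rest. The share was 75.5% at the 3 dense high ends and 61.4% at the other 16 ends. These 3 ends were picked for their density, which itself favours close neighbours.

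By mean percentile, end summits did not differ detectably in strength from other summits of their list. Their mean percentile was 47.4 ± 1.93 (SD, n = 8), against 48.5 ± 0.668 for summits in the rest. The difference of −1.10 ± 1.89 percentile points had an adjusted p of 0.198 in the exact permutation of signs, and it was positive in 2 of 8 libraries. The share of summits above the 75th percentile of their list was 19.8% ± 1.91 at ends and 22.5% ± 1.07 in the rest, a description with no test. It was lower at the ends in every library except WT control replicate 2 (23.0% against 22.0%). With ends of 2 Mb the percentile difference was −3.51 ± 3.08 and passed (adjusted p = 0.0104, exact permutation test). By end, the mean percentile ran from 33.8 at the high end of Chr6 to 60.3 at the high end of Chr2. The dense high ends of Chr4, Chr7 and Chr10 had 43.4, 45.3 and 45.3. Of the 4 sparsest ends, the high end of Chr1 and the starts of Chr4 and Chr7 had 36.4, 39.0 and 39.1, and the start of Chr2 had 48.4.

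The most constant binding at the ends was at 14 regions called in all 8 libraries, 1.47% of the end regions against 1.68% of all regions in the series. Of these, 12 lay at high ends and 2 at the start of Chr1, and they fell on 8 of the 19 ends. In 11 of the 14, all summits lay within 100 bp of each other. The 10 named here had the highest mean percentile.

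Chr9:21917061-21917291 ranked first, with a mean percentile of 99.9. Its −log10 p was 117 and 166 in H49 desiccation, 84.7 and 209 in WT desiccation, 91.6 and 413 in H49 control and 248 and 291 in WT control, and its summits lay within 30 bp. It lies 999.8 kb from the highest summit of Chr9, just inside the border. On the same arm, 183 kb from the end, Chr9:22733724-22733958 had 51.7 and 124 in H49 desiccation, 22.5 and 93.5 in WT desiccation, 39.6 and 146 in H49 control and 82.1 and 155 in WT control. The lowest percentile of the second in any list was 95.3.

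The high end of Chr2 held a pair of such regions. Chr2:35591395-35591618, with all summits within 23 bp, had −log10 p of 46.2 and 73.6 in H49 desiccation, 36.2 and 74.8 in WT desiccation, 90.1 and 207 in H49 control and 198 and 141 in WT control. Chr2:35458981-35459208 had 19.7 and 37.4 in H49 desiccation, 16.5 and 88.1 in WT desiccation, 22.1 and 49.4 in H49 control and 32.9 and 75.1 in WT control. Their lowest percentiles in any list were 90.8 and 86.3.

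The start of Chr1 held another pair, 4.63 kb apart between their nearest summits. Chr1:656503-656784 had −log10 p of 31.8 and 65.9 in H49 desiccation, 19.5 and 86.1 in WT desiccation, 28.4 and 169 in H49 control and 110 and 168 in WT control. Chr1:651781-652075 had 19.6 and 32.6 in H49 desiccation, 14.5 and 48.4 in WT desiccation, 21.2 and 181 in H49 control and 67.1 and 92.3 in WT control. Of the 9 starts, only that of Chr1 held a region that every library called.

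The other 4 named regions ranked lower by mean percentile, at 81.3 to 89.8. Chr7:29060150-29060413 had a mean −log10 p of 45.7 ± 34.9 (SD, n = 8), Chr5:29365409-29365657 38.8 ± 31.8, Chr10:22965536-22965819 36.7 ± 30.7 and Chr3:35633342-35633632 27.9 ± 27.0. Their lowest percentiles in any list were 63.4, 67.2, 70.6 and 37.4, in the same order. The last lies 7.97 kb, between nearest summits, from Chr3:35625322-35625573, which was also called in all 8 libraries. The 4 regions not chosen by the rule include both such regions at the dense high end of Chr4, whose mean −log10 p was 19.8 ± 13.9 and 11.8 ± 6.23. These means and SDs pool values that cannot be compared between libraries. H49 control replicate 2 had the highest value in 11 of the 14 regions.

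**Figure D3:**
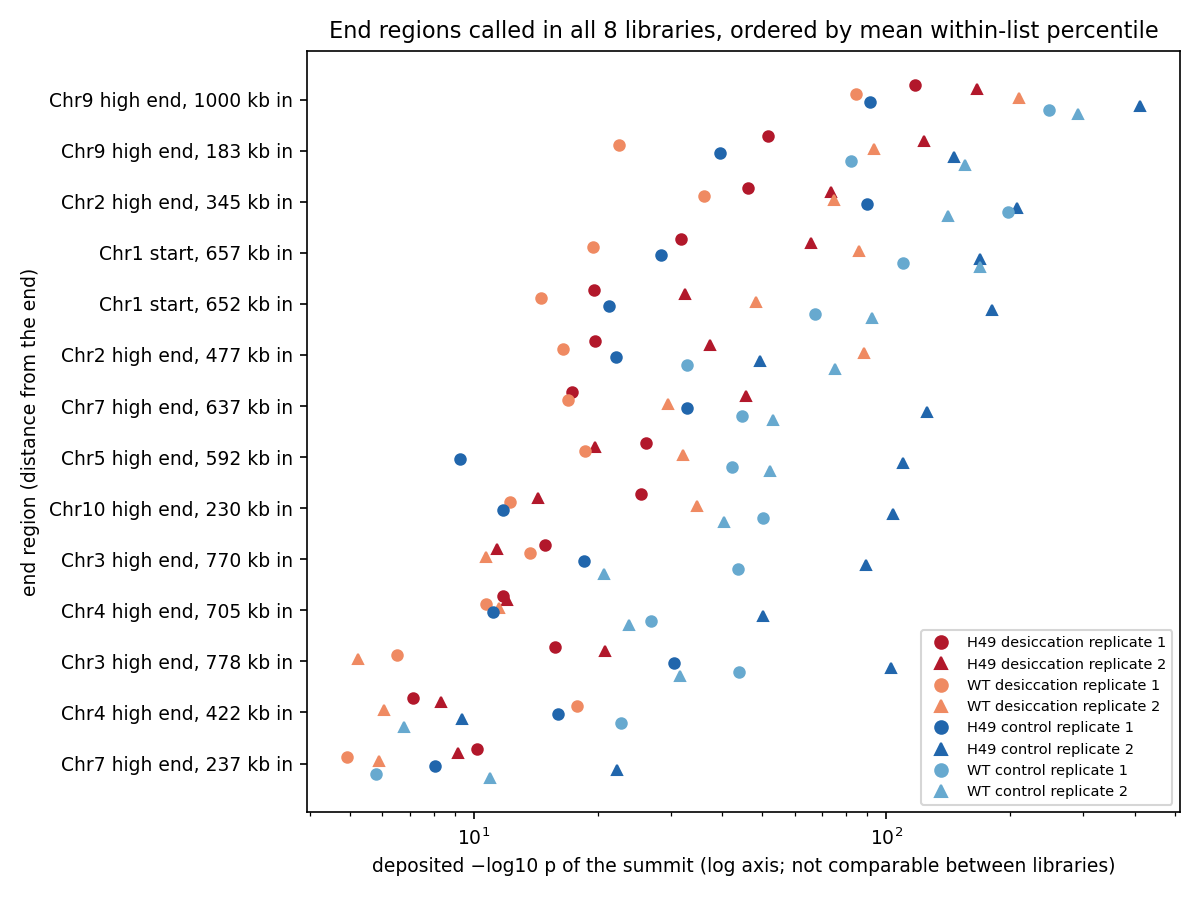
Deposited −log10 p of each library, on a log axis, for the 14 end regions called in all 8 libraries, labelled by end and distance from the end and ordered by mean within-list percentile. The region of Chr9 at the top runs from 84.7 to 413, and the 4 regions at the bottom, at the high ends of Chr4, Chr3 and Chr7, have means of 9.66 to 32.1. Values cannot be compared between libraries.

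Desiccation and control did not differ detectably in the share of summits at the ends. The share was 5.94% and 4.61% in H49 desiccation and 4.24% and 6.37% in WT desiccation. It was 5.97% and 5.28% in H49 control and 6.5% and 5.26% in WT control. The groups overlapped, and the replicates of each group lay further apart than the groups' means. Desiccation averaged 5.29% ± 1.03 and control 5.75% ± 0.600 (SD, n = 4 each), a difference of −0.463 percentage points (p = 0.457 in an exact two-sided permutation test over the 70 assignments, adjusted p = 0.771 over the 2 contrasts). H49 averaged 5.45% ± 0.646 and WT 5.59% ± 1.06, a difference of −0.143 points (p = 0.771 in the same exact permutation test, adjusted 0.771). Leaving out WT control replicate 1, WT desiccation replicate 2 or H49 desiccation replicate 2 turned the genotype difference positive, to 0.160, 0.116 and 0.137 points.

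**Figure D4:**
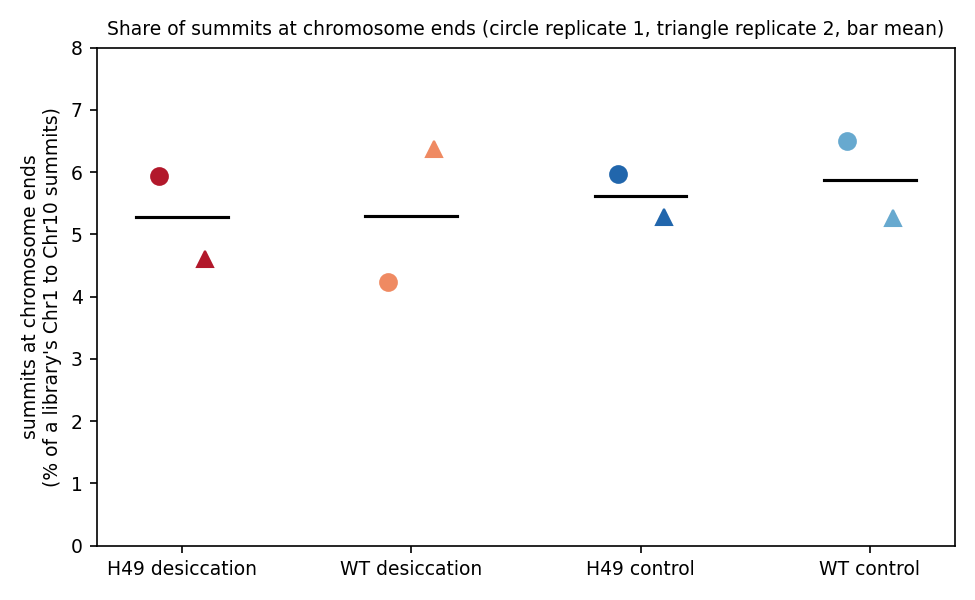
Percent of a library's Chr1 to Chr10 summits that lay at chromosome ends, 1 point per library, with circles for replicate 1, triangles for replicate 2 and a bar at the mean of each group. The 4 desiccation libraries range from 4.24% to 6.37% and the 4 control libraries from 5.26% to 6.5%.

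By end, the share of the summed mean percentages that came from desiccation ran from 19% at the start of Chr4 to 68.0% at the start of Chr2, and was 47.9% over all ends. At the dense high ends of Chr4, Chr7 and Chr10 it was 48.5%, 48.7% and 47.3%. The test per end called 0 of 19 ends after adjustment (0.0% of those tested, lowest adjusted p = 0.271, exact permutation test), and 2 ends (10.5%) had an unadjusted p of 0.0286, the smallest that 4 against 4 libraries allow. At both, all desiccation libraries lay below all control libraries. The high end of Chr6 held 0.0885% ± 0.0777 of the summits in desiccation and 0.288% ± 0.125 in control. The start of Chr8 held 0.129% ± 0.0172 in desiccation and 0.284% ± 0.0396 in control (SD, n = 4 each).

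Most of the difference at the start of Chr8 lay between 500 and 600 kb from position 1, a bin chosen after its values were seen. The desiccation libraries had 0 summits each there, against 7 and 3 in H49 control and 17 and 3 in WT control. Without WT control replicate 1 the bin held 13 summits, all from control. Among them were Chr8:546157-546544, Chr8:550242-550541 and Chr8:551329-551578, each with a summit in H49 control replicates 1 and 2 and in WT control replicate 1.

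One-sided regions, with a summit in 3 or 4 libraries of a treatment and in 0 of 4 of the opposite one, made up a similar or smaller share of the end regions than of all regions. For desiccation there were 2 such end regions (0.211% of the end regions, against 0.418% of all regions). Chr7:29403075-29403359 had −log10 p of 7.61 and 7.81 in H49 desiccation and 6.52 in WT desiccation replicate 1. Chr10:22368655-22368997 had 5.87 and 4.66 in H49 desiccation and 4.77 in the same WT library. Neither was called in WT desiccation replicate 2. Their mean percentiles were 57.6 and 26.6. Without any of the other 3 desiccation libraries the count was 0, which follows from the rule, since 3 calls were still required.

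For control there were 23 such end regions (2.42%, against 2.66% of all regions), 7 of them in all 4 control libraries. The high ends of Chr4, Chr5 and Chr7 held 4 each, and the start of Chr8 and the high end of Chr10 held 3 each. Chr4:34981145-34981804 came first by percentile, with −log10 p of 28.4 and 15.2 in H49 control and 38.5 and 10.1 in WT control. It lies beside Chr4:34979316-34980037, which all 8 libraries called. Chr10:23194991-23195244, which begins about 1 kb from the last summit of Chr10, had 8.61 and 12.5 in H49 control and 23.4 and 5.66 in WT control. Chr7:794205-794470 had 9.50 in H49 control replicate 2 and 23.6 and 6.80 in WT control. Chr7:28932828-28933186 had 7.80 in H49 control replicate 1 and 8.67 and 8.88 in WT control.

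The control lists are longer than the desiccation lists. With equal numbers of the strongest summits in each list, 5 such control regions were found at the ends, against 3 for desiccation. The shares over all regions in that setting are not given here, and the part of list length was not tested. Of the 23, 1 was missing from H49 control replicate 1, 5 from H49 control replicate 2, 1 from WT control replicate 1 and 9 from WT control replicate 2. Without a control library, when all 3 others had to call a region, the count was 7 to 15. For genotype, 0 of 950 end regions had a summit in 3 or more H49 libraries with none in WT, against 0.246% of all regions. The opposite set also held 0 of 950, against 0.234%. A count of 0 in 950 allows a share of up to 0.316%, so the ends could not be told from the background here.

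The first 100 kb of Chr9, where the ribosomal RNA genes lie, behaved unlike the other ends. Its 117 summits came from 6 libraries, and 98.3% of them lay in the first 40 kb. The counts were 1 and 6 in H49 desiccation, 0 and 33 in WT desiccation, 0 and 22 in H49 control and 36 and 19 in WT control. In 3 of 4 groups replicate 2 had more than replicate 1, and in WT control the longest list had the most. On unplaced sequence, too, replicate 2 had more summits than replicate 1 in each group: 4 and 5 in H49 desiccation, 1 and 21 in WT desiccation, 3 and 9 in H49 control and 3 and 10 in WT control. The part of library preparation in this was not tested.

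The summits in this block repeated at a fixed step. A series of 5 regions, Chr9:1901-2167, Chr9:9827-10124, Chr9:17752-18028, Chr9:25732-25969 and Chr9:33611-33893, lay 7879 to 7980 bp apart, on average 7928 bp. Each was called in the same 5 libraries. Within a library the 5 regions had nearly the same −log10 p: 10.8 to 12.5 in H49 desiccation replicate 2, 40.2 to 45.5 in WT desiccation replicate 2, 3.10 to 3.33 in H49 control replicate 2, 3.02 to 4.59 in WT control replicate 1 and 11.3 to 13.9 in WT control replicate 2. Another 4 regions, with Chr9:21998-22269 as the most often called, lay about 4.24 kb further on within each step. The series was singled out after its values were seen. Its members are positions in tandem copies and are not independent sites, and the sources used here do not say how reads that match several copies were placed.

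**Figure D5:**
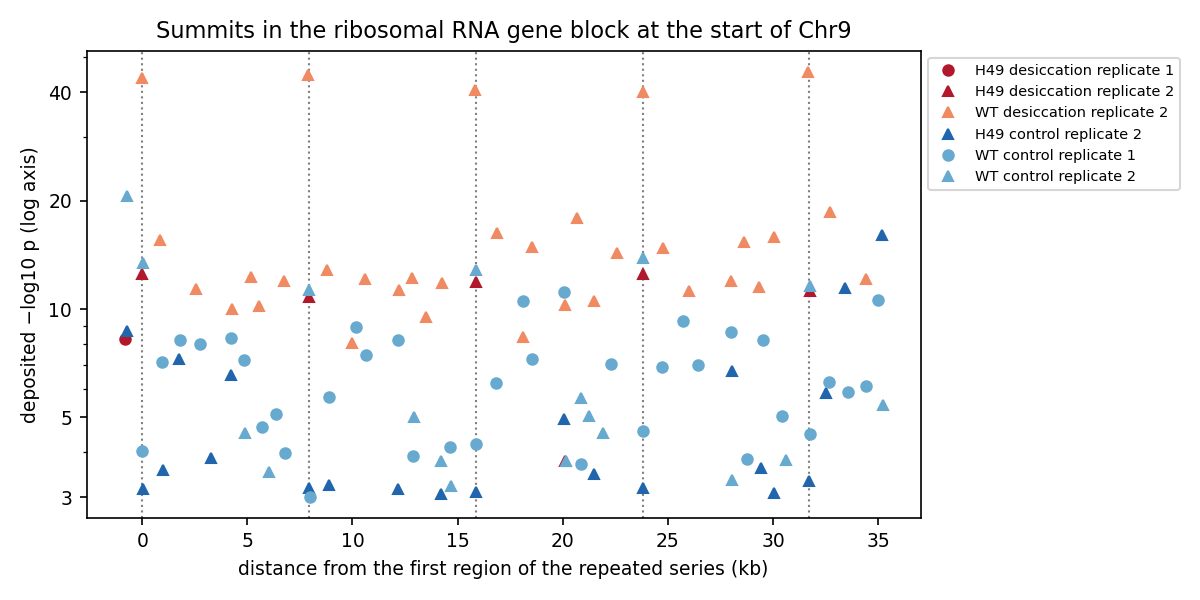
Deposited −log10 p, on a log axis, of each summit in the ribosomal RNA gene block at the start of Chr9, by distance in kb from the first region of the repeated series, with dotted lines at the 5 regions of the series and 1 symbol per library. The values of WT desiccation replicate 2 at the dotted lines lie between 40.2 and 45.5 at every step.

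Of the 52 regions of this block, 35 (67.3%) were called in at least 2 libraries, against 29.3% of the other end regions, and none was called in all 8. The summits of the block lie close together and in tandem copies, and the part of either in this share was not tested. Counted together with the ends, the block gave a log2 ratio of ends to rest of 0.03 ± 0.30, which is of the opposite sign to the −0.08 ± 0.23 without it and did not pass either (adjusted p = 0.758, exact permutation test).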

How the data were processed

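The series' design text deposited by the authors names NGS QC Toolkit for read filtering, Bowtie2 for mapping to MSU version 7 of the rice genome, and MACS2 for peaks. The submitters' processing notes give MACS2 as 2.1.1.20160309 and no version of Bowtie2. A Bedops step is also named, and the sources used here do not say whether it entered the lists or whether inputs served as background. Each of the 8 deposited lists holds the summits of 1 ChIP library with the authors' −log10 p-value, a unit read from the MACS2 summit format, the lowest values near 3 and a tag in the peak names read as a threshold of 0.001. In 1 line the peak name was damaged and the line was kept. Depth is unknown, so no counting interval could be given.

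Of 29740 summits, 29684 lay on the 12 nuclear chromosomes. Positions are those of the lists, counted from 1, and a printed region reaches 100 bp beyond its outermost summits. Densities, recurrence and percentiles were compared between ends and rest over 8 libraries by exact sign-flip permutation tests (256 assignments), and treatments and genotypes over 4 against 4 libraries by exact permutation tests, all two-sided and adjusted by the Benjamini-Hochberg method within a family, at a threshold of 0.05. The density test of single ends was checked on simulated summits. Python 3.11.15, numpy 2.4.6 and pandas 2.3.3 were used. The members and lists were chosen with earlier results of these data known. Regions were named by a rule: of the end regions in all 8 libraries the 10 with the highest mean percentile, and of each one-sided set the 4 highest, or all where there were 4 or fewer. Nothing in the labels ties replicates to separate plants, so the p-values reflect the spread among these samples alone, and that spread may be technical. Comparisons that need gene positions or sequence (gene starts, a binding motif, assembly lengths) were not made here. Alternatives were the summits used, the width of an end, the rest chosen, the merging distance, dense bins, the replicate block and leaving out each library.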

Additional observations from a re-analysis of the deposited data

Results flagged for a closer look

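WT desiccation replicate 2 stood far from the other libraries in several measures. Its log2 ratio of high ends to starts was 0.25, against 0.98 to 1.53 in the other 7 libraries. It held 1.78% of its summits in the first 100 kb of Chr9, against 0% to 0.285% in the other desiccation libraries and up to 0.721% in the other libraries overall. It was the only desiccation library with a summit at the start of Chr4 and at the start of Chr9 beyond the first 100 kb, 1 summit or 0.0540% each, against 0% in the others. WT desiccation replicate 1 stood apart at the start of Chr3, with 0.326% of its summits against 0.142% to 0.162% in the other desiccation libraries. WT control replicate 1 stood apart at the high end of Chr2, with 0.388% against 0.229% to 0.242% in the other control libraries. A total of 56 sets of values were examined for such gaps and 7 had one. The rule marks about 1 in 20 by chance only where values are continuous and sets separate, which does not hold here. A lone summit against 0 in the other desiccation libraries, as at the starts of Chr4 and Chr9, is always marked. The first 100 kb of Chr9 was marked both among the desiccation libraries and among all 8.

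The desiccation libraries of the genotypes lay on opposite sides of their controls at 2 ends, and neither difference was tested. At the high end of Chr2, desiccation minus control was 0.0323 percentage points in H49 (0.262% in desiccation, 0.230% in control) and −0.132 points in WT (0.183% in desiccation, 0.315% in control). At the high end of Chr8 it was 0.107 points in H49 (0.191% in desiccation, 0.0840% in control) and −0.101 points in WT (0.162% in desiccation, 0.264% in control).

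The lists also hold 56 summits on the sequences ChrUn and ChrSy, outside the 12 chromosomes, which entered no comparison.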

How the results depend on the processing

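The excess of high ends over starts kept its direction under every alternative run, and passed in all but 6 of those that left out 1 library. The log2 ratio was 2.0 with ends of 0.5 Mb and 0.46 with ends of 2 Mb, both more than 1.5 times away from 1.10. Leaving out 1 library gave a log2 ratio of 1.04 to 1.22 for high ends against starts (adjusted p up to 0.0625), −0.12 to −0.02 for ends against rest, −8.70 to −4.56 points for recurrence, −1.40 to −0.576 percentile points for strength, −0.823 to −0.112 points for the treatment difference and −0.595 to 0.160 points for the genotype difference. It was positive at 0.137, 0.116 and 0.160 without H49 desiccation replicate 2, WT desiccation replicate 2 and WT control replicate 1. The number of ends above the rest was 3 each time, of ends below 4 to 7, and of ends differing by treatment 0. One-sided regions, still required in 3 libraries, numbered 0 to 3 for desiccation, 7 to 33 for control, 0 to 2 for H49 and 0 to 4 for WT.

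The density ratio of ends to rest turned positive with ends of 2 Mb (0.27), with the first 100 kb of Chr9 counted in (0.0258), with dense bins left out (0.0471) and with starts measured from their lowest summit (0.0242, chosen after seeing the data), and passed at −0.47 against the 4 Mb next to the ends. Recurrence no longer passed in the upper 50% of each list (−3.04), with ends of 0.5 Mb (−2.46) or 2 Mb (−1.38), or with summits merged up to 100 bp (−5.15). The percentile difference passed with ends of 2 Mb (−3.51) and was 0.0619 against the adjacent 4 Mb and 0.808 without dense bins. The treatment difference was 0.0616 with ends of 0.5 Mb, 0.569 against the adjacent 4 Mb and 0.0749 without dense bins. The genotype difference was 0.208 with equal numbers of summits and 0.539 with ends of 2 Mb. None of these treatment or genotype differences passed.

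Ends above the rest numbered 1 in the upper 50% and 9 with ends of 2 Mb, and ends below numbered 12 against the adjacent 4 Mb. One-sided desiccation regions numbered 1 with ends of 0.5 Mb and 7 with 2 Mb. Control ones numbered 10 in the upper 50%, 5 with equal numbers, 8 with ends of 0.5 Mb, 74 with 2 Mb and 12 with merging up to 100 bp. H49 ones numbered 1 in the upper 50%, 3 with ends of 2 Mb and 1 with merging up to 100 or 500 bp. WT ones numbered 6 with ends of 2 Mb, 2 with the start of Chr9 counted in and 1 with merging up to 500 bp. Wider or narrower ends hold more or fewer regions by construction, and for the other changes the cause was not tested. The shares over all regions in these settings are not given here, so the one-sided counts do not compare the ends with the series.

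Same-numbered replicates of different groups did not deviate together throughout (correlations over 19 ends from −0.09 to 0.53). In the outermost 100 kb of the start of Chr6 and on unplaced sequence, however, replicate 2 exceeded replicate 1 in each group. The labels give only a shared number, and whether it marks a shared batch cannot be told from these values. With the replicate number as a block, the treatment difference was −0.463 points and the genotype difference −0.143 (adjusted p = 0.778 each, exact permutation tests), and 0 ends differed by treatment. Alternatives that need assembly lengths, gene starts or a motif were not run. Read depth is unknown, so a region missing from a short list may lie below its threshold.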
